A study of Saccharomyces cerevisiae with 32 samples.

Results

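Transcript levels of 10 genes of mitotic exit and cytokinesis were followed over 1 cycle of a respiratory oscillation in budding yeast. The genes were CDC5 (YMR001C), CDC20 (YGL116W), KIN3 (YAR018C), BUD4 (YJR092W), HOF1 (YMR032W), CHS2 (YBR038W), IQG1 (YPL242C), MYO1 (YHR023W), CYK3 (YDL117W) and NDD1 (YOR372C). They were taken by their gene symbol in the array annotation, 1 probe set each, from 5449 S. cerevisiae genes on the array. All 10 were among the 5377 genes that passed the filter on low signals. The samples were 32 portions of a continuous culture of CEN.PK113-7D, a MATa laboratory strain, in a fermentor at 30 °C and pH 4.0. The dissolved oxygen of the culture oscillated with a period of about 2 h at a dilution rate of 0.06 to 0.086 per h. A portion of 0.5 ml was taken every 4 min, and each was read on its own Affymetrix Yeast Genome 2.0 array. The labels give each sample a phase angle, with steps of 12.5° from one sample to the next, and 360° corresponded to 115 min. No other strain, treatment or time course entered, and no time point was repeated.

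In budding yeast, mitosis ends when the polo-like kinase Cdc5 and the anaphase promoting complex with its activator Cdc20 drive chromosome separation and the loss of mitotic cyclins. A ring of the myosin Myo1 and the IQGAP protein Iqg1 then closes at the bud neck, while the chitin synthase Chs2 lays down the primary septum with the help of Hof1 and Cyk3. Many genes of this stage are switched on together in G2 and M phase by the factors Mcm1 and Fkh2 with their coactivator Ndd1, and form the CLB2 cluster, named after a mitotic cyclin gene.

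The arrays measured RNA from the whole culture. A larger share of cells in mitosis and more transcript per cell therefore cannot be told apart in any value below. Array medians over the budding yeast probe sets ran from 1436 to 2340.2. The S. pombe probe sets on the same arrays, used as background, had medians of 5.4 to 9.8. No signal of the 10 genes came near that background, the lowest being 438 for KIN3. The array of highest median signal was that at 334°, and 24 poly-A control probe sets were lowest on the 5 arrays from 34.3° to 84.2°. Of the MATa-specific genes, STE2 had a median signal of 8439. STE3 and SAG1, which MATα cells use, had medians of 623 and 1124, which lay above the S. pombe probe sets and not near 0.

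KIN3, BUD4, HOF1, CHS2, CDC20 and CYK3 varied with phase, that is 6 of the 10 genes, beside 60.9% of all genes tested, so the share was close to the background and is no result about these genes. The highest and lowest samples of a gene differed by 1.48-fold (MYO1) to 2.80-fold (HOF1, CHS2 and CYK3). The test was a limma moderated F test on curves with 2 harmonics of the phase angle, with data whitened for the correlation between neighbouring samples and adjusted p under 0.05 over all 5377 genes. KIN3, HOF1 and CYK3 varied with a fitted range, from trough to peak of the curve, of at least 2-fold (3 of 10, beside 39.1% of all genes). The median fitted range of the 10 genes was 0.74 on the log2 scale, against 0.85 for all genes tested. CDC5, IQG1, MYO1 and NDD1 did not pass. Without whitening, 9 of the 10 passed, all but MYO1, beside 94.8% of all genes. All calls of the 10 genes were lost when arrays were scaled by the poly-A controls in place of quantile normalization, and only those of KIN3 and HOF1 held with the deposited values as they stand. The fitted ranges of the 6 genes were wider under poly-A scaling, at 1.58 for HOF1, 1.57 for KIN3, 1.62 for CYK3, 1.44 for CHS2, 1.22 for CDC20 and 1.12 for BUD4, while over all genes 19.9% passed. With linear time added to the model 3 of the 10 passed (KIN3, HOF1 and CYK3), and with 1 harmonic 4, without CDC20 and CHS2.

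**Figure D1:**
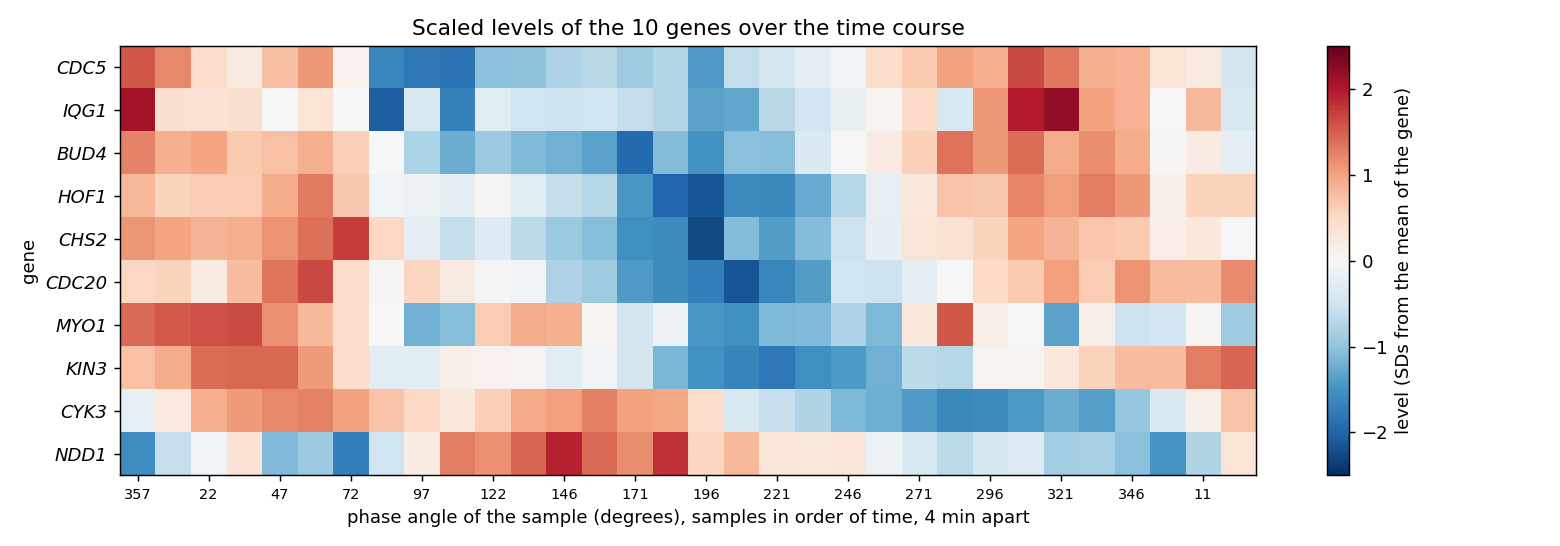
Heat map of the level of each gene (rows) in the 32 samples in order of time (columns, labelled by phase angle in degrees), in SDs from the mean of the gene. HOF1 and CHS2 are lowest at 196°, CDC20 at 209° and KIN3 at 221°, whereas CDC5 is lowest at 109° and CYK3 at 284°, and NDD1 is highest at 146°.

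CDC5, which encodes the polo-like kinase, had its lowest normalised signal, 1493, at 109°, a median of 2119 and its highest signal, 2737, at 309°, a 1.83-fold difference. Its samples from 270° to 315°, its highest window of phase, had a mean log2 level of 11.27 ± 0.11 (SD, n = 4). Those from 90° to 135°, its lowest window, had 10.65 ± 0.12 (SD, n = 4). These samples did not overlap, but the windows are the highest and lowest of this gene, so their separation is not a test of phase. The share of all genes with such a separation is not given here. The fitted range was 0.69 ± 0.13 (block jackknife SE, 32 samples in 8 blocks of 4 neighbours), and the gene missed the threshold (limma adjusted p = 0.0576). Under 18 alternative settings its adjusted p lay between 1.63e-07 and 0.921, and it passed in 2 of them, without whitening and without the 5 arrays of lowest poly-A signal.

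CDC20, encoding the activator that the anaphase promoting complex needs to start chromosome separation, varied (limma adjusted p = 0.0112). Its signal went from 528 at 209° through a median of 806 to 1041 at 59.2°, a 1.97-fold difference. The low point was sharper than the high one, since levels lay on a long plateau: the mean log2 level was 9.81 ± 0.07 (SD, n = 5) from 315° to 360°, 9.78 ± 0.09 (n = 5) from 0° to 45° and 9.83 ± 0.19 (n = 4) from 45° to 90°, against 9.15 ± 0.07 (n = 4) from 180° to 225°. The fitted range was 0.70 ± 0.08, and the peak of the curve, 59.5° ± 44.4 (SE), had no firm position on that plateau: under 4 of 18 alternative settings it lay between 315° and 343.5°. The call was lost with linear time in the model (limma adjusted p = 0.133).

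KIN3, the gene of a protein kinase of the NIMA family, had a wider fitted range than CDC5 and CDC20. Its signal was lowest at 221°, with 438, and highest at 23.8°, with 1221, around a median of 790, a 2.78-fold difference. The fitted range was 1.24 ± 0.10 with a peak at 20.5° ± 10.8 (limma adjusted p = 3.37e-04). The 5 samples from 0° to 45°, its highest 45° window, had a mean signal of 1166 ± 78.0 (SD). The 4 samples from 180° to 225°, its lowest window, had 476 ± 43.3.

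**Figure D2:**
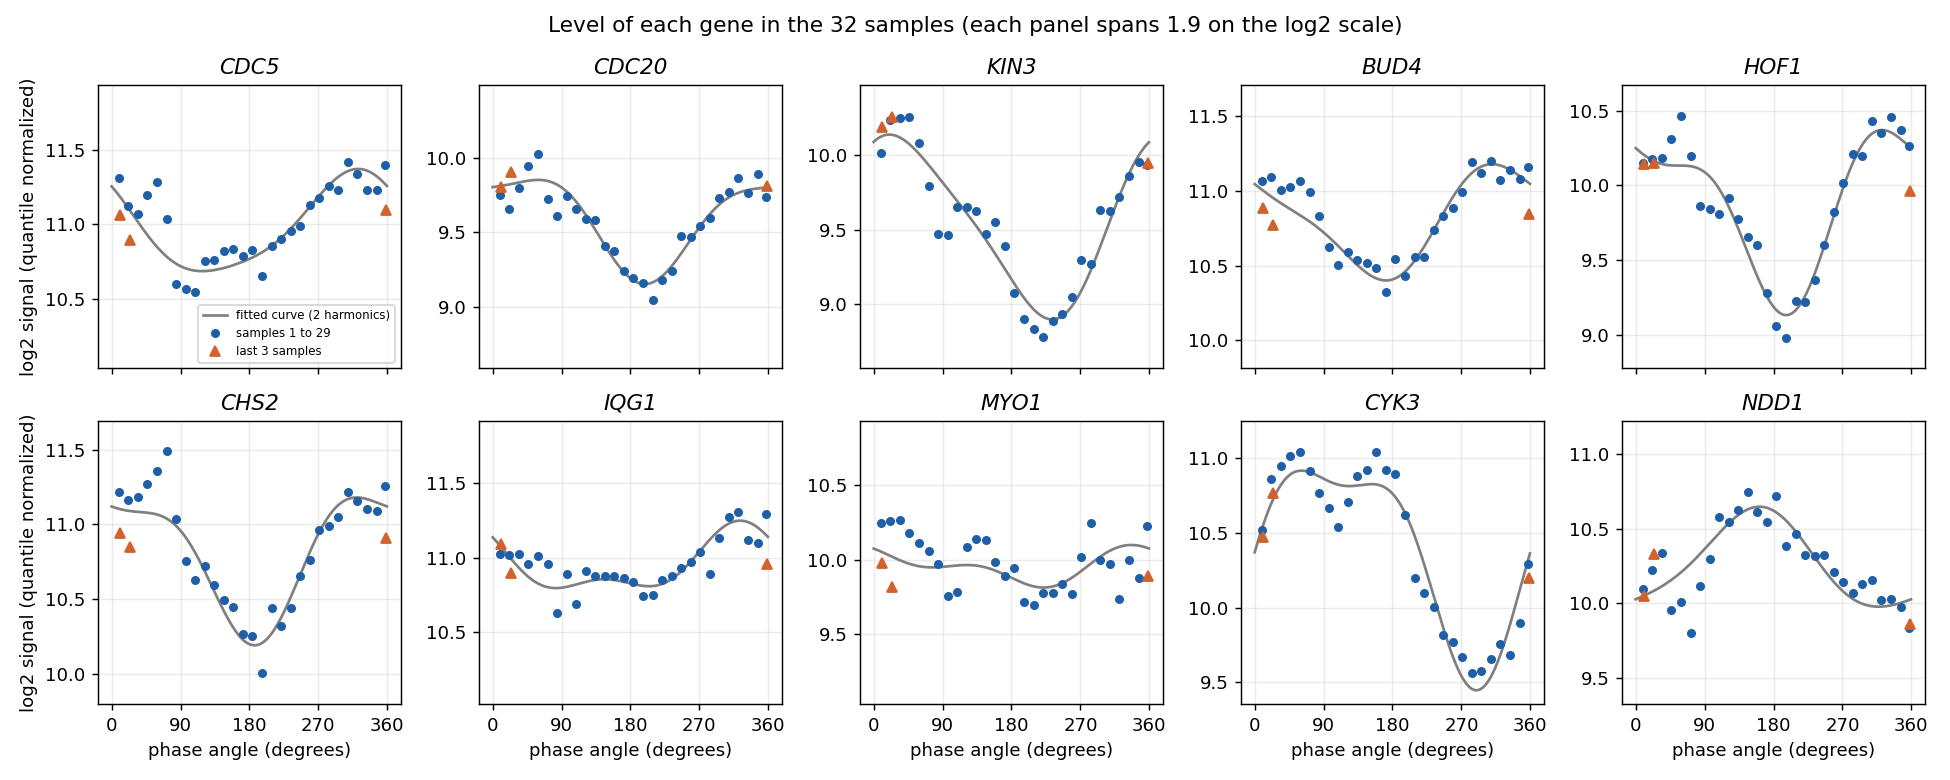
Quantile normalised log2 signal of each gene against phase angle in degrees, with circles for samples 1 to 29, triangles for the last 3 samples, which begin the next turn, and a grey line for the fitted curve of 2 harmonics. The curves of HOF1, CHS2, CDC20 and KIN3 have their trough between 187° and 233°, that of CYK3 lies at 289.5°, and the curve of NDD1 has its maximum at 161.5°.

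Among the genes of the division site, HOF1 and CHS2 had nearly the same course. HOF1, which encodes an F-BAR protein of the bud neck, varied with a fitted range of 1.24 ± 0.05 and a peak at 321.5° ± 8.0 (limma adjusted p = 0.00149). Its signal was lowest at 196°, with 503, had a median of 1014 and was highest at 59.2°, with 1413, a 2.80-fold difference. A second high stretch lay from 309° to 346°, where the 4 samples had signals of 1376, 1306, 1403 and 1325. CHS2, encoding the chitin synthase of the primary septum, varied with a range of 0.99 ± 0.13 (limma adjusted p = 0.0119, and 0.107 with linear time in the model). Its signal went from 1023 at 196° through a median of 1944 to 2871 at 71.7°, again a 2.80-fold difference. The highest sample lay far from the fitted peak at 320° ± 66.9, and that peak came to 53.5° without whitening and to 37° without the last 3 samples. The 4 samples from 45° to 90° had a mean log2 level of 11.29 ± 0.19 (SD) and the 5 from 315° to 360° of 11.11 ± 0.13, both above the 10.25 ± 0.18 (n = 4) from 180° to 225°.

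BUD4, whose product marks the old division site for axial budding, varied with a fitted range of 0.78 ± 0.07 and a peak at 310° ± 14.3 (limma adjusted p = 0.00825, and 0.0738 with linear time in the model). Its signal was lowest at 171°, with 1278, and highest at 309°, with 2349, a 1.84-fold difference around a median of 1862. The 4 samples from 270° to 315°, its highest window, averaged 2235 ± 146 (SD), and the 3 from 135° to 180°, its lowest, 1389 ± 98.1.

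The ring components themselves gave values with smaller swings. IQG1 had signals between 1579, at 84.2°, and 2533, at 321°, with a median of 1965, a 1.60-fold difference. Its fitted range of 0.45 ± 0.10 did not pass (limma adjusted p = 0.316), although 3 of 18 alternative settings gave a pass, with adjusted p from 3.64e-06 to 1. MYO1 had signals between 830, at 209°, and 1228, at 34.3°, with a median of 1006, a 1.48-fold difference. Its fitted range of 0.29 ± 0.15 did not pass (limma adjusted p = 0.876) and passed under 0 of 18 alternatives. The mean log2 level of MYO1 was 10.11 ± 0.20 (SD, n = 5) from 0° to 45° and 9.78 ± 0.11 (n = 4) from 180° to 225°, and single samples such as that at 284°, with 1215, stood above their neighbours of 1036 and 1023.

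CYK3 took another course. This gene of an SH3-domain protein that acts with Inn1 and Chs2 in septum formation had the smallest adjusted p of the 10 (limma adjusted p = 2.79e-06) and the widest fitted range, 1.47 ± 0.13. Its signal was lowest at 284°, with 753, had a median of 1476 and was highest at 159°, with 2111, a 2.80-fold difference. Levels were high in separate stretches with a dip between them: the signal was 2106.9 at 59.2°, 1484.5 at 109° and 2111 at 159°. The curve peaked at 61° ± 11.0 and had a second maximum at 152.5°, only 0.09 lower on the log2 scale. The 3 samples from 135° to 180° averaged 1996 ± 99.5 (SD), while the 4 samples from 270° to 315° averaged 783 ± 29.8. In those 4 samples BUD4 and CDC5 had their highest means of any 45° window, 2235 and 2473.

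NDD1, the coactivator gene, had its lowest signals where several of the others were high. It was lowest at 71.7°, with 890, and highest at 146°, with 1714, around a median of 1186, a 1.92-fold difference. The 3 samples from 135° to 180°, its highest window, had a mean log2 level of 10.63 ± 0.10 (SD). The lowest window, from 315° to 360°, had 9.94 ± 0.09 (n = 5). The fitted range of 0.67 ± 0.12 with a peak at 161.5° ± 24.0 did not pass (limma adjusted p = 0.262), and 1 of 18 alternatives, the fit without whitening, gave a pass (range 1.74e-07 to 1). Of the factors that work with or against Ndd1, 1 of 5 varied, beside 60.9% of all genes: the repressor gene YOX1, with a fitted range of 1.68 ± 0.22 and a peak at 55.5°. The forkhead genes FKH1 and FKH2 had ranges of 1.02 and 0.55 (limma adjusted p = 0.132 and 0.264), MCM1 0.34 (0.407) and the repressor gene YHP1 0.99 (0.117), none past the threshold.

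Along the cycle, counted from 270°, the fitted peaks came in the order BUD4 (310°), CHS2 (320°), HOF1 (321.5°), CDC5 (322°), IQG1 (323.5°), MYO1 (336.5°), KIN3 (20.5°), CDC20 (59.5°), CYK3 (61°) and NDD1 (161.5°). Differences between peaks were set against 95% intervals from the block jackknife, widened for all 45 pairs. The interval left out 0 for 8 pairs, of which 4 held CYK3 and 4 held NDD1. The peaks of CDC5, IQG1, MYO1 and NDD1 belong to curves that did not pass the test of phase. Of the 8 pairs, only CYK3 with HOF1 and CYK3 with BUD4 were made up of genes that both varied. CYK3 peaked 99.5° after HOF1 (interval 25.5 to 174), 97.5° after IQG1 (35.1 to 160), 99° after CDC5 (13.5 to 185) and 111° after BUD4 (14.8 to 207). These differences rest on the higher of the nearly equal maxima of CYK3, the other lying at 152.5° and 0.09 lower. The fitted peak of CYK3 came to 153.5° with the deposited values and to 103.5° with 1 harmonic. NDD1 peaked 141° after KIN3 (12.8 to 269), and its peak lay 160° from that of HOF1, 160.5° from that of CDC5 and 162° from that of IQG1. Among the other 8 genes, chosen as a group after the profiles were seen, 0 of 28 pairs had an interval that left out 0. No neighbours in the order differed beyond their error. The interval was narrow for HOF1 against CDC5 (-23.8° to 22.8°) and, for CHS2 and CDC20 against most genes, wider than the cycle, so that their order is not resolved. The number of pairs was 28 with a jackknife over single samples, which leaves neighbours of the same stretch in, and 12 of those lay among these 8 genes. It was 6 with the deposited values, of which 4 were among the 8 pairs above, 4 without whitening and 0 with poly-A scaling.

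**Figure D3:**
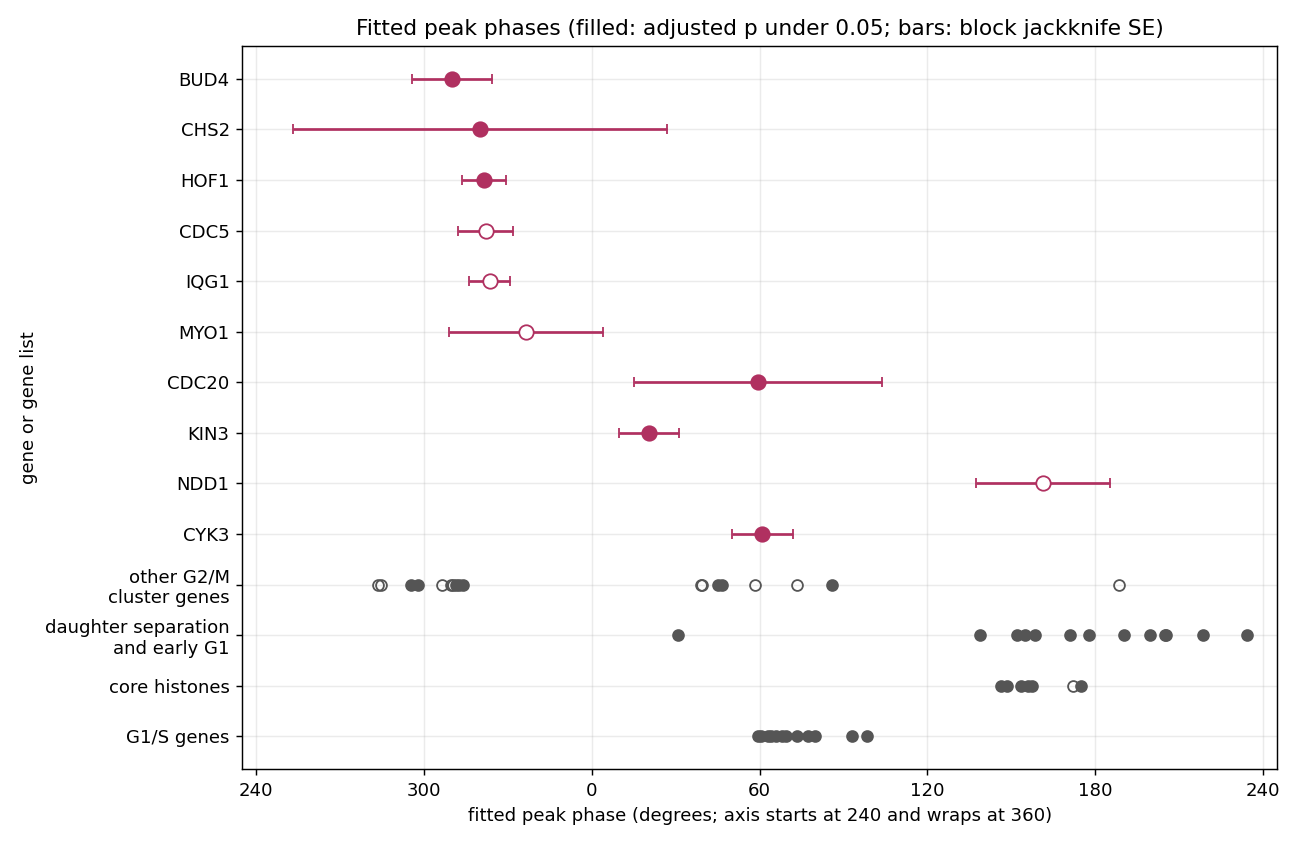
Fitted peak phase in degrees of each of the 10 genes (red, with block jackknife SE) and of the genes of 4 comparison lists (grey). Filled symbols passed the test of phase, open ones did not. BUD4, CHS2, HOF1, CDC5, IQG1 and MYO1 lie between 310° and 337°, a stretch named after the peaks were seen. CDC5, IQG1 and MYO1 did not pass. Of the other G2/M cluster genes, ALK1 (312.5°), MMR1 (314°), AIM20 (311.5°) and TPO3 (310.5°, not passed) also lie there. No G1/S, histone or daughter separation gene does.

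Over the 32 samples, which share their arrays, Pearson's r was taken between log2 levels. Among the 8 genes other than CYK3 and NDD1 it ran from 0.28 (IQG1 and MYO1) to 0.93 (HOF1 and CHS2), with a median of 0.69 over 28 pairs. These 8 were grouped after the same profiles were seen, and neighbouring samples are not independent. The r values among them therefore only describe the group. HOF1 and CDC20 had r = 0.92. NDD1 had r between -0.81 (with BUD4) and -0.19 with these 8 genes, and CYK3 between -0.49 and 0.34.

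From 59.2° to 96.6°, within 12 min, the level of CDC5 went down by 1.65-fold, of HOF1 by 1.54-fold, of KIN3 by 1.53-fold and of CHS2 by 1.52-fold. The decreases were smaller for BUD4, 1.36-fold, CYK3, 1.30-fold, MYO1, 1.28-fold, CDC20, 1.22-fold, and IQG1, 1.09-fold. The level of NDD1 went up by 0.29 on the log2 scale. The median change of all genes tested over the same step, with its sign, was 0.03, which does not show how many genes went down by as much. The levels of HOF1 and CHS2 went on down to their lowest samples at 196°. From 196° to 309°, over 36 min, HOF1 came to be 2.73-fold and CHS2 2.32-fold higher, whereas the level of CYK3 differed by -0.96 on the log2 scale. Both steps were chosen after the values were seen and were not tested. The poly-A controls also differed between these stretches, with a mean log2 signal of 7.55 over the 4 arrays from 45° to 90° and of 8.26 over the 4 from 90° to 135°, and their part in these steps was not tested.

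The phase of the highest sample depended on the scaling of the arrays for most of the genes. Relative to the poly-A controls, CHS2, BUD4, IQG1, MYO1 and CYK3 were highest at 71.7°, CDC5, CDC20, KIN3 and HOF1 at 59.2°, and NDD1 at 34.3°, all on the 5 arrays where these controls were lowest. With the deposited values, BUD4, CDC20 and HOF1 were highest at 334°, on the array of highest median signal, and CDC5, CHS2, IQG1 and MYO1 in the first sample, at 357°. The lowest sample also moved with the scaling for most of the genes. With poly-A scaling it went from 109° to 196° for CDC5, from 84.2° to 196° for IQG1, from 209° to 23.8° for MYO1 and from 71.7° to 334° for NDD1, and with the deposited values from 209° to 159° for CDC20. HOF1 and CHS2 were lowest at 196° under quantile, deposited, median and poly-A scaling, with a fold between highest and lowest sample of 2.80 to 5.43 for HOF1 and 2.79 to 6.14 for CHS2. The lowest sample of CYK3 lay between 271° and 296° under these 4 scalings. Without the 5 arrays of lowest poly-A signal, the same 6 genes and CDC5 passed, 7 of 10.

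**Figure D4:**
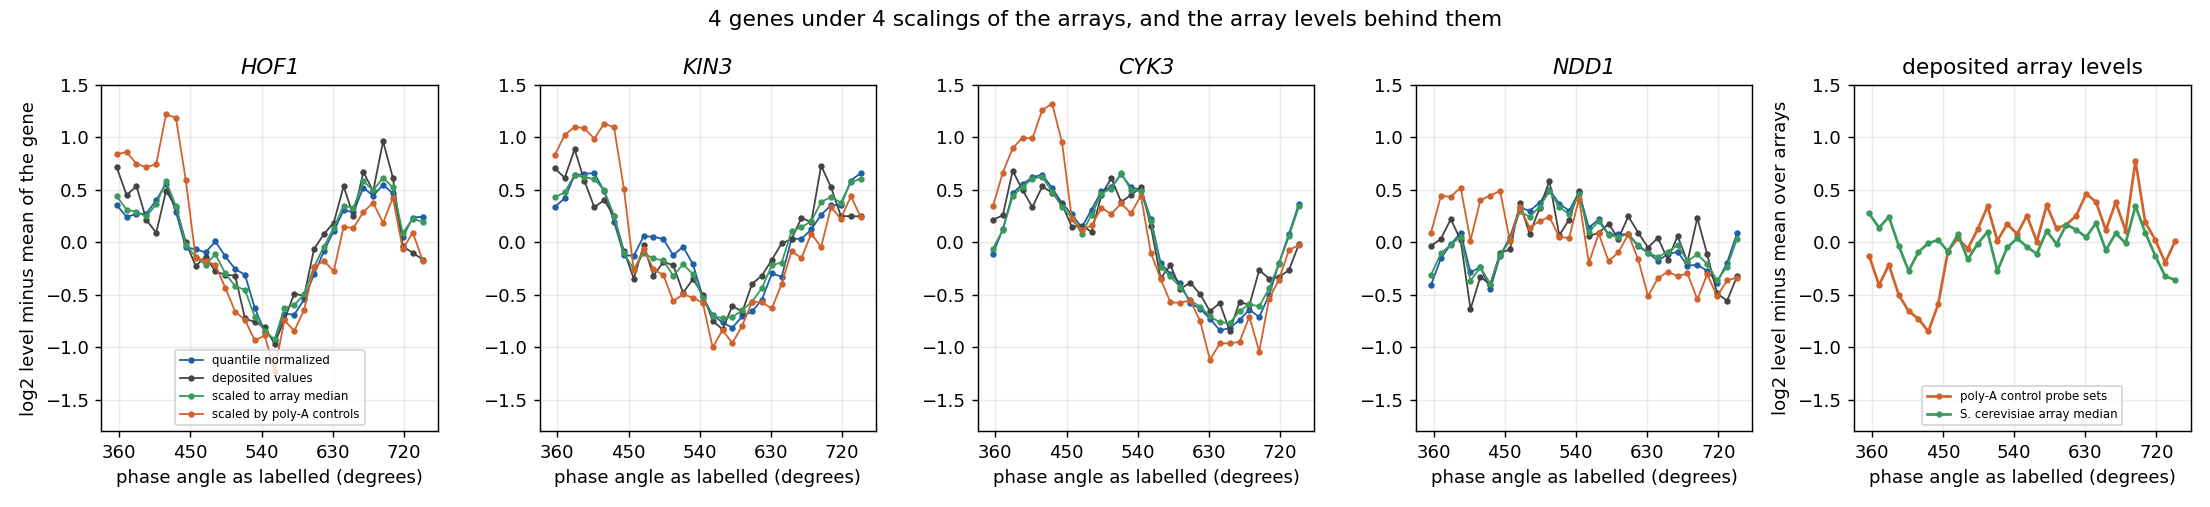
Log2 level minus the mean of the gene against phase angle in degrees as labelled, for 4 genes under 4 scalings of the arrays, and at the right the deposited poly-A control level and array median in the same units. Poly-A scaling raises the samples from 34.3° to 84.2° of phase, where the poly-A controls themselves are lowest, and the lowest sample of HOF1 is that at 196° under all 4 scalings.

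The first and the last 3 samples are 1 turn apart, with phase angles that match to 1.93°, so their levels can be set side by side. No test was made, as 3 neighbouring samples of 1 culture are not replicates. The level was lower at the end for 7 of the 10 genes, with a median difference of -0.12 on the log2 scale against 0.01 for all genes tested, of which 47.4% were lower. Without regard to sign, the median difference was 0.13 for the 10 genes and 0.14 for all genes tested. MYO1 had signals of 1194, 1211 and 1223 in the first turn and of 947, 1008 and 899 at the matching phases of the next. CHS2 had 2448, 2374 and 2294 against 1922, 1965 and 1845. The mean difference was -0.35 for MYO1, -0.31 for CHS2, -0.27 for BUD4 and -0.26 for CDC5. It was smaller for IQG1, HOF1 and CYK3, at -0.13, -0.11 and -0.08. With the deposited values all 10 genes were lower at the end, with a median of -0.64 against -0.44 for all genes. KIN3, with 975, 1033 and 1201 against 986, 1161 and 1221, and CDC20 were slightly higher at the end, by 0.07 and 0.12.

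Other genes that act with the 10 were counted in lists, some of which share genes, such as SIC1 and DBF2. Of 18 measured genes that are also placed in the CLB2 cluster, 8 varied (44.4%, beside 60.9% of all genes), 5 with a fitted peak from 270° to 360° and 3 from 0° to 90°. In all genes that varied, 10.0% peaked from 270° to 360° and 44.5% from 0° to 90°. RAX2, a bud site gene, had the widest range among those that varied, 1.88 ± 0.22 with a peak at 45°. WSC4, a cell wall sensor gene, had 1.45 ± 0.19 and its highest sample at 134°, far from its fitted peak at 298° ± 211. CLB2, named here after its values were seen, had signals from 435 at 358° to 1445 at 46.8° and did not pass (limma adjusted p = 0.684). In all, 10 genes of the list did not pass.

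In the mitotic exit network and the pathway of early Cdc14 release, 12 of 19 genes varied (63.2%, close to the 60.9% of all genes), with peaks spread over the cycle. BNS1, a relative of SPO12, had a fitted range of 1.88 ± 0.19 with a fitted peak at 306.5° but its highest sample at 159°, and SIC1, encoding the inhibitor of mitotic cyclin kinase, 1.47 ± 0.20 at 139°. Of the anaphase promoting complex, which Cdc20 activates, 6 of 14 genes varied (42.9%), led by the subunit genes APC9 (1.60 ± 0.13 at 147.5°) and CDC26 (1.08 ± 0.26 at 37.5°). Among spindle checkpoint and chromosomal passenger genes 3 of 10 varied (30.0%). The securin gene PDS1, whose product is destroyed through Cdc20, had 1.23 ± 0.21 at 122.5°, and the passenger gene SLI15 had 1.18 ± 0.16 at 103.5°. Partners of the ring and septum varied in 8 of 22 cases (36.4%), with AXL2, a bud site gene, at 2.40 ± 0.21 (peak at 100°) and the bud neck gene AIM44 at 1.29 ± 0.11 (153°). The numbers that did not pass in these 4 lists were 7, 8, 7 and 14.

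Genes known from other stages of the cell cycle were measured on the same arrays. Beside the 60.9% of all genes, all 12 G1/S genes varied, with a mean direction of their peaks of 72.7°, and CLB6 (3.53 ± 0.32) and TOS4 (3.13 ± 0.24) had the widest ranges. Of 7 core histone genes 6 varied, with a mean direction of 156°. HHT2 (1.30 ± 0.30) and HTB2 (1.00 ± 0.07) led, and HTB1 did not pass (0.51, limma adjusted p = 0.113). All 13 genes of daughter separation and early G1 varied, with a mean direction of 181°, led by the glucanase gene DSE4 (2.25 ± 0.28 at 190.5°) and the cyclin gene PCL9 (2.17 ± 0.18 at 155°). The 8 other varying genes of the CLB2 cluster had a mean direction of 340.5°. Among them, CLB1 (295.5° ± 63.8, SE) and WSC4 (298° ± 211) had peaks without a firm position. The mean directions are given as values, and the differences between lists were not tested.

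The genes outside the 10 with the profile most like their mean profile over the 32 samples were PDC6, a minor pyruvate decarboxylase gene (Pearson's r = 0.87), PMA1, the plasma membrane proton pump gene (0.83), ASE1, the spindle midzone gene (0.83), SOL3 (0.83), YNL058C (0.83), HLR1 (0.83), MCM7 (0.81), KRE2 (0.81), SPS4 (0.80) and MCM4 (0.79). PDC6 had a fitted range of 2.20 with a peak at 16.5°, and MCM7, of the replicative helicase, 1.15 at 29°. Of the 10 members, HOF1 had the highest correlation with the mean of the other 9, 0.89, followed by CHS2 with 0.86, while CYK3 had -0.12 and NDD1 -0.67.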

How the data were processed

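Total RNA of the 32 samples was hybridised to 1 array each, with 5 µg of labelled cRNA per the labels. The authors deposited linear probe set intensity values; GCOS is the software in the submitters' processing notes, without a version or a stated scaling. Of 10928 probe sets, 5498 were paired with 1 S. cerevisiae gene, named by the platform annotation and updated through the R64 gene table. Arrays were quantile normalised over these probe sets, 1.9 (the 10th percentile of all values) was added and log2 taken, and the brightest probe set stood for each gene. Tested were genes whose mean exceeded 4.46, below which 95% of S. pombe probe sets fell. Signals in the text are these normalised values on the linear scale, on which 1 probe set is not comparable with another.

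Curves with 2 harmonics of the phase angle were fitted in limma 3.58.1 (R 4.3.3). Data and design were whitened with a first-order correlation between neighbouring samples common to all genes (0.79, by restricted maximum likelihood), and a moderated F test was adjusted by Benjamini and Hochberg over all genes. Errors of ranges and peaks came from leaving out 8 blocks of 4 neighbouring samples. The fit was also run on simulated data, and the outcome is not reported here. All samples came from 1 time course, so p-values measure only spread around a curve, and the number of arrays limits the precision.

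The members and lists were chosen with earlier results of these data known. Named are the 10 members, the 2 varying genes of widest range of each list and those that did not pass (over 4, their count), and the 10 genes most like the mean profile; others are named as chosen afterwards. HHF2, MFALPHA1 and MFALPHA2 were not analysed here. Alternatives covered scaling, pseudocount, filter, probe sets, harmonics, whitening, covariates and left-out samples. Leaving out the array of highest median signal and the 5 arrays of lowest poly-A signal was added after seeing the data.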

Additional observations from a re-analysis of the deposited data

How the results depend on the processing

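The count of varying genes, 3273 of 5377, became 1068 with poly-A scaling, 1548 with 1 harmonic and 5100 without whitening. The count of varying genes among the 10, 6, became 2 with the deposited values, 0 with poly-A scaling and 3 with linear time added, under which CDC20, BUD4 and CHS2 were lost. It was 4 with 1 harmonic, 9 without whitening and 7 with a correlation estimated for each gene alone, at odd time points and without the 5 arrays of lowest poly-A signal, and it was 6 under the other 10 settings. The pairs of peaks that differed, 8, became 28 with a jackknife over single samples (12 of them without CYK3 and NDD1), 0 with poly-A scaling and 4 without whitening. The fitted peak of CHS2, 320°, came to 53.5° without whitening. KIN3 and HOF1 each passed in 17 of 18 alternatives, CYK3 in 16, BUD4 in 15, and CDC20 and CHS2 in 14. The median difference between matched phases, -0.12, became -0.64 with the deposited values and -0.84 with poly-A scaling, under which the median of all genes was also shifted, by -0.44 and -0.64. The cause of these shifts was not tested. No paired analysis was possible because the labels give 1 group and no replicate numbers; the samples at matched phases were set side by side without a test.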
